A study of Mus musculus with 38 samples.

Results

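The genes described here are 8 that encode enzymes, or partners of enzymes, that make reactive oxygen or nitric oxide in the intestinal mucosa: Duox2, Duoxa2, Nox1, Noxo1, Noxa1, Nos2, Cyba and Cybb. They were taken by name from the gene tables, and they are 8 of 46078 genes. The data are RNA sequencing counts from 38 libraries of isolated intestinal epithelial cells of C57BL/6 mice, and each library carries its own animal number. KO denotes mice with floxed Hk2 (hexokinase 2) and a Cre recombinase driven by the Villin promoter, which is active along the intestinal epithelium and not in immune or stromal cells. WT denotes floxed littermates, for which no Cre is stated. The floxed alleles are thus common to all groups. Mice were sampled on day 0, before treatment, or on day 3 or 7 of colitis induced with dextran sodium sulfate (DSS, 1.5%), an agent that injures the colonic epithelium. The DSS mice were males of 10 to 12 weeks, with both genotypes housed together. Untreated mice used for basal measurements were 9 to 11 or 86 to 92 weeks old, and the age and sex of the day 0 animals are not given. There were 4 WT and 5 KO libraries on day 0, 7 WT and 8 KO libraries on day 3, and 7 libraries of each genotype on day 7.

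DUOX2 is the main hydrogen peroxide-producing oxidase of the apical surface of gut epithelial cells, and DUOXA2 is the maturation factor without which it does not leave the endoplasmic reticulum. NOX1 produces superoxide in the colonic epithelium when it is joined by an organizer (NOXO1), an activator (NOXA1) and the membrane subunit encoded by Cyba, which it shares with the phagocyte oxidase whose catalytic subunit is encoded by Cybb. Nos2 encodes the inducible synthase that makes nitric oxide from arginine, and it is transcribed in epithelial cells and macrophages after cytokine or microbial stimulation.

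The promoters of 3 members are shown to set the letters of Duoxa2 and Cybb, which both rose between days 3 and 7, beside those of Nox1, which did not pass the test. Each is the 250 bases before the transcription start, read 5′ to 3′ on the gene's strand, from RefSeq with the GRCm38.p6 build, and capitals mark the motif match.
Duoxa2 (chr2:122298650-122298899, plus strand): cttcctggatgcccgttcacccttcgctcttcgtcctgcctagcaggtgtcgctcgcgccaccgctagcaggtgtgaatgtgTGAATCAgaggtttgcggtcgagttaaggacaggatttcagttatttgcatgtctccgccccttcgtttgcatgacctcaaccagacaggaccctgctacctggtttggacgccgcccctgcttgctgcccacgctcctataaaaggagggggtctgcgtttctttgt
Cybb (chrX:9469325-9469574, minus strand): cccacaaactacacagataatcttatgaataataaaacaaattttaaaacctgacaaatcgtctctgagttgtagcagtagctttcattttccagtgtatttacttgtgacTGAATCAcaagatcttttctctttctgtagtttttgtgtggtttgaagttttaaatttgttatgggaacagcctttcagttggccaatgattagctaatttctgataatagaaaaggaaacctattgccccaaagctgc
Nox1 (chrX:134111855-134112104, minus strand): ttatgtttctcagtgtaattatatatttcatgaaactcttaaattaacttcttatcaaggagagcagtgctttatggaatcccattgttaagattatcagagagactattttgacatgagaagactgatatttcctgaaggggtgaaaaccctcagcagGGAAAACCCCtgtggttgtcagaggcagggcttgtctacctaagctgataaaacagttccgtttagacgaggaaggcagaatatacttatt

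In the Duoxa2 window the capitals are TGAATCA, a match to the AP-1 motif TGANTCA, at bases 168 to 162 before the start. The same letters lie at bases 139 to 133 before the start of Cybb. In the Nox1 window they are a match to the NF-kB consensus at bases 91 to 82 before the start. Windows were found for 7 of the 8 members, all but Nos2, and were searched on both strands for these motifs and for the STAT motif TTCNNNGAA. The windows of Duox2, Noxo1 and Cyba held no match, and that of Noxa1 held an NF-kB consensus match at bases 249 to 240 before the start. Of the members without a match, Duox2 also rose between days 3 and 7 in both genotypes, and Cyba in KO. No STAT match was found in the 7 windows, which says only that these letters are not there. Among 32851 RefSeq windows of the same length, 6.75% held the AP-1 motif, 7.25% the NF-kB consensus and 7.02% the STAT motif. No window held matches to more than 1 of the motifs, so none overlapped. A match is a description of the letters and not a binding site. The RefSeq starts of Cybb and Nox1 lie inside the longer gene bounds of the count files.

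Duox2 and Duoxa2 are neighbours on opposite strands of chromosome 2. Duox2 (ENSMUSG00000068452) spans 122279247 to 122298165 on the minus strand in the count files and Duoxa2 (ENSMUSG00000027225) spans 122298900 to 122302885 on the plus strand. They are 734 bases apart in the count files, and their RefSeq starts are 673 bases apart. Nox1 (ENSMUSG00000031257) lies on chromosome X at 134086421 to 134221956, Noxo1 (ENSMUSG00000019320) on chromosome 17 at 24696234 to 24700529, and Noxa1 (ENSMUSG00000036805) on chromosome 2 at 25085667 to 25095149. Nos2 (ENSMUSG00000020826) lies on chromosome 11 at 78920787 to 78960254, Cyba (ENSMUSG00000006519) on chromosome 8 at 122424772 to 122432940 and Cybb (ENSMUSG00000015340) on chromosome X at 9435252 to 9487771. These are bounds of whole protein-coding genes in the count files, and counts are over their exons. The strand of the reads was ignored in counting, so a read from exon sequence shared with a gene on the opposite strand cannot be told apart from one of that gene, and no option for such reads was set. Shared exon sequence was 2122 of the 3013 exon bases of Noxo1 (with Tbl3), 682 of 1592 of Duoxa2 (with Duoxa1), 399 of 3307 of Nox1 (with Cstf2) and 50 of 1617 of Noxa1 (with Entpd8). Values of Noxo1 are the most uncertain on this account.

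Total counts per library were 10.5 to 60.6 M (M, mega counts), of which the day 0 libraries had 10.5 to 44.9 M. The names of the day 0 libraries carry another series prefix than those of days 3 and 7, so that an effect of treatment and one of library series cannot be told apart in a comparison with day 0. The same holds for age and sex, which are not given for the day 0 animals, and in part for depth. Libraries of days 3 and 7 had 25.2 to 60.6 M counts. Genes of the mitochondrial genome took 6.25 to 61.7% of counts, with up to 41.7% in WT day 3 and up to 61.7% in KO day 0. The fewest genes with any count were in d3_WT_381 (19084, of 26.7 M counts), d7_WT_386 (19831, of 25.2 M) and d0_KO_32 (20100, of 17.5 M). Some calls of Cyba, Nox1 and Noxa1 below change when 1 of these libraries is left out. The part of depth and of the mitochondrial share in those calls was not tested. Hk2, the targeted gene, was at 247 to 439 CPM (counts per M of the library size after TMM scaling) in WT and 31.2 to 111 CPM in KO libraries of day 0, at 99.3 to 224 and 70.9 to 440.0 CPM on day 3, and at 231 to 598 and 56.6 to 260.0 CPM on day 7. Its log2 fold change between KO and WT was -2.20 on day 0 (SE 0.30, adjusted p 0.0331, edgeR), -0.27 on day 3 (SE 0.33, adjusted p 0.802, edgeR) and -1.25 on day 7 (SE 0.30, adjusted p 0.291, edgeR). The day 0 call held in 3 of 9 leave-one-out fits (adjusted p up to 0.176, edgeR), and day 7 passed by the DESeq2 Wald test (adjusted p 0.0119). Hk2 reached 440 CPM in the library labelled d3_KO_345, above all 7 WT day 3 libraries, which goes against its label. Without that library the day 3 log2 fold change of Hk2 was -0.74 (SE 0.18, adjusted p 0.77, edgeR). The main results for KO day 3 are given with and without it. The genotypes also overlapped through d3_WT_346, at 99.3 CPM below 5 of 8 KO day 3 libraries, and d7_KO_420, at 260.0 CPM above d7_WT_431 (231 CPM). Epithelial markers (9 of 9 detected in every group) summed to 11100 to 25400 CPM, so markers of the labelled cell type were present throughout.

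Before treatment the members differed widely in level. Levels between genes are compared per kb of exon. In WT day 0, Cyba had a mean level of 44.7 CPM per kb, Noxa1 42.1, Duox2 34.7, Nox1 9.39, Duoxa2 7.56, Noxo1 1.44, Nos2 0.565 and Cybb 0.127 CPM per kb. In WT day 7 the mean levels were 124 CPM per kb for Cyba, 65.1 for Duox2, 54.4 for Noxa1, 46.4 for Duoxa2, 20.3 for Nos2, 6.16 for Nox1, 1.52 for Cybb and 1.27 for Noxo1. By these means Nos2 was below Nox1 in WT day 0 and above it in WT day 7, which was not tested. In d7_WT_386 the order was the reverse, with Nos2 at 5.77 and Nox1 at 13.3 CPM per kb. The place of Duoxa2 on both days, and that of Noxo1 on day 7, depends on the length used. With exon sequence shared with other genes left out of the length, Duoxa2 was at 13.2 and Nox1 at 10.7 CPM per kb in WT day 0, and at 81.1 and 7 CPM per kb in WT day 7. Noxo1 was then at 4.88 CPM per kb in WT day 0 and 4.29 CPM per kb in WT day 7. By that length, Duoxa2 in WT day 7 was above Duox2 (65.1 CPM per kb) and Noxa1 (56.1), and Noxo1 was above Cybb (1.52).

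Between day 3 and day 7 of DSS, 4 of the 8 members rose in WT and 5 of 8 in KO, and none fell. In WT these were Duox2, Duoxa2, Nos2 and Cybb, and in KO they were the same 4 and Cyba. Of all 15541 genes tested in WT, 19.3% were called (adjusted p under 0.05, edgeR), 10.6% as higher and 8.7% as lower. Of 15568 tested in KO, 19.3% were called, 10.5% as higher and 8.83% as lower. All 8 members passed the filter on low counts in both comparisons. The WT count was 6 with all 38 libraries in 1 fit, where Noxa1 and Cyba also passed. That fit called 4297 of 19144 genes, 2547 of them as higher. The median log2 fold change over all genes tested was 0.01 in WT and -0.01 in KO.

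**Figure D1:**
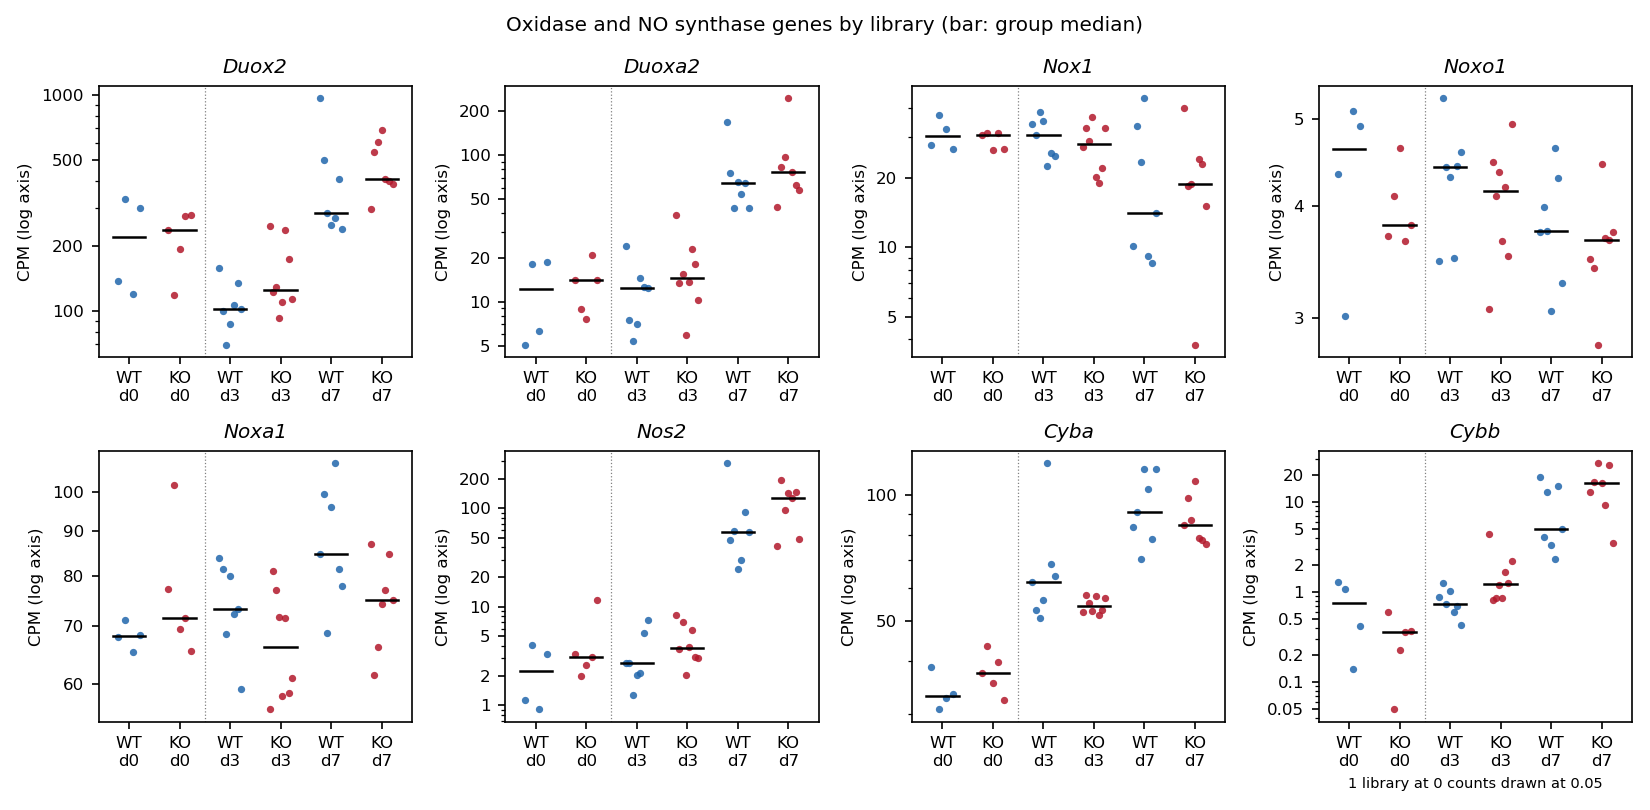
Level of each member in each of the 38 libraries, in CPM on a log axis, for WT (blue) and KO (red) on days 0, 3 and 7. Each point is a library, each bar a group median, and the dotted line parts the 2 library series. In Duoxa2 and Nos2 every day 7 library lies above every day 3 library, while Nox1 on day 7 spreads from 3.79 to 44.1 CPM.

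Duox2 was already abundant before DSS. It was measured at 120, 138, 301 and 329 CPM in the WT day 0 libraries and at 118, 193, 238, 276 and 278 CPM in the KO day 0 libraries. On day 3 the WT libraries had 69.8 to 158 CPM (median 102) and the KO libraries 92.7 to 246 CPM (median 126), with the library labelled d3_KO_345 the highest. On day 7 the WT libraries had 240.0 to 966 CPM (median 285) and the KO libraries 296 to 686 CPM (median 410). Every day 7 library of a genotype was above every day 3 library of that genotype, and d7_WT_356 alone was above 686 CPM. That library also had the highest sum of small intestine markers, 8450 CPM against 1230 to 3140 CPM in the other WT day 7 libraries. Its sum of colon markers was the lowest, 4480 CPM against 7160 to 12800 CPM in the others. The part of these markers in the result was not tested.

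In WT the mean level of Duox2 was 108 ± 29.3 CPM on day 3 and 417 ± 260.0 CPM on day 7 (SD, n = 7 each). In KO it was 153 ± 59.6 CPM on day 3 (SD, n = 8) and 476 ± 140.0 CPM on day 7 (SD, n = 7). The log2 fold change from day 3 to day 7 was 1.96 (SE 0.30, adjusted p 0.000407, edgeR) in WT and 1.64 (SE 0.23, adjusted p 0.00016, edgeR) in KO. Without the library labelled d3_KO_345 it was 1.77 in KO. Between day 0 and day 3 Duox2 was lower in WT, with a log2 fold change of -1.13 (SE 0.27, adjusted p 0.00392, edgeR). In KO it was -0.65 (SE 0.26, adjusted p 0.0495, edgeR), and this call was lost in 10 of 13 leave-one-out fits (adjusted p up to 0.13, edgeR). The call held without the library labelled d3_KO_345, where the value was -0.79 (SE 0.24, adjusted p 0.0145, edgeR). In order of mean level the groups were WT day 3, KO day 3, KO day 0, WT day 0, WT day 7 and KO day 7, and neighbours that did not pass a test were the genotypes within each day and WT day 0 against WT day 7 (log2 fold change 0.84, SE 0.42, adjusted p 0.104, edgeR). The last passed the test with all 38 libraries in the fit (0.87, adjusted p 0.0301, edgeR).

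Duoxa2, the maturation factor, was less abundant than Duox2 before DSS and on day 3, and rose on day 7. It was measured at 5.11, 6.37, 18 and 18.7 CPM in WT day 0 and at 7.61, 8.86, 14, 14.1 and 20.7 CPM in KO day 0. Day 3 libraries had 5.43 to 24 CPM (median 12.5) in WT and 5.96 to 38.9 CPM (median 14.5) in KO, where the library labelled d3_KO_345 was again the highest. Day 7 libraries had 43.5 to 169 CPM (median 64.4) in WT and 44.3 to 244 CPM (median 77.3) in KO. No day 7 library overlapped a day 0 or day 3 library of either genotype, and the highest were d7_WT_356 and d7_KO_420.

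The log2 fold change of Duoxa2 from day 3 to day 7 was 2.65 (SE 0.37, adjusted p 0.000179, edgeR) in WT and 2.46 (SE 0.40, adjusted p 0.000427, edgeR) in KO, and 2.75 in KO without the library labelled d3_KO_345. Between day 0 and day 3 it did not pass the test (log2 fold change -0.12 in WT and 0.30 in KO, adjusted p 0.829 and 0.534, edgeR). Without the library labelled d3_KO_345 the KO value was 0.0 (SE 0.3, adjusted p 0.996, edgeR). Against day 0, the day 7 log2 fold change was 2.52 (SE 0.47, adjusted p 0.000584, edgeR) in WT and 2.77 (SE 0.44, adjusted p 0.000125, edgeR) in KO. The Duoxa2 count level was 0.0517 ± 0.0106 (SD, n = 4) of that of Duox2 in WT day 0, 0.106 ± 0.0312 (SD, n = 7) in WT day 3 and 0.184 ± 0.0393 (SD, n = 7) in WT day 7. In KO the ratio was 0.0598 ± 0.0155 (SD, n = 5), 0.109 ± 0.0274 (SD, n = 8) and 0.188 ± 0.0753 (SD, n = 7). These ratios are of CPM, are not per length, and were not tested. The highest was 0.355, in d7_KO_420.

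Nox1, the colonic superoxide-producing oxidase, did not rise with the DUOX genes. Day 0 libraries had 26.6, 27.8, 32.6 and 37.2 CPM in WT and 26.3, 26.5, 30.7, 31.2 and 31.3 CPM in KO. Day 3 libraries had 22.5 to 38.3 CPM (median 30.5) in WT and 19 to 36.5 CPM (median 28) in KO. On day 7 the range was 8.53 to 44.1 CPM (median 14) in WT and 3.79 to 39.9 CPM (median 18.8) in KO. Within each genotype, 4 of 7 day 7 libraries were below every day 3 library and 1 was above every day 3 library.

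The day 7 libraries thus spread more than those of the other days, with a coefficient of variation of 68.1% in WT and 53.3% in KO, against 8.78 to 23.6% in the other 4 groups. The log2 fold change from day 3 to day 7 was -0.55 (SE 0.34, adjusted p 0.287, edgeR) in WT and -0.42 (SE 0.31, adjusted p 0.401, edgeR) in KO. Without d7_WT_386, the library with the highest level, the WT value was -0.88 and passed the test (adjusted p 0.0452, edgeR). Neither comparison with day 0 passed the test, with log2 fold changes on day 7 of -0.69 in WT and -0.63 in KO (adjusted p 0.165 and 0.151, edgeR). They passed it without the highest day 7 library of each genotype, d7_WT_386 (-0.98, adjusted p 0.0308, edgeR) and d7_KO_366 (-0.88, adjusted p 0.0349, edgeR).

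The cytosolic partners of NOX1 moved little. Noxo1, the organizer, had group means of 3.61 to 4.34 CPM, and no comparison of days or genotypes passed the test in it, except day 7 against day 0 in KO when d7_KO_420 was left out (-0.32, adjusted p 0.0455, edgeR). Its lowest library was at 2.8 CPM and its highest at 5.28 CPM, and all groups overlapped. Noxa1, the activator, had group means of 66.8 to 88 CPM and libraries at 56 to 108 CPM. Its log2 fold change from day 3 to day 7 was 0.26 (SE 0.11, adjusted p 0.0931, edgeR) in WT and 0.17 (SE 0.10, adjusted p 0.251, edgeR) in KO. In WT it passed the test without d7_WT_370 (0.31, adjusted p 0.038, edgeR). Against day 0 it passed the test in WT day 7 (0.29, SE 0.12, adjusted p 0.0479, edgeR) and, in the other direction, in KO day 3 (-0.33, SE 0.12, adjusted p 0.0302, edgeR). The first was lost in 10 of 11 leave-one-out fits, and the second without d0_KO_32 (-0.17, adjusted p 0.209, edgeR) or d3_KO_385 (-0.30, adjusted p 0.0508, edgeR). The CPM of Noxa1 was 2.18 to 11.8 times that of Nox1 in WT day 7 and 1.79 to 3.21 times in WT day 3.

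Nos2, the inducible nitric oxide synthase, had the largest fold change of the members between day 3 and day 7 in each genotype. It was measured at 0.91, 1.12, 3.35 and 4.1 CPM in WT day 0 and at 1.99, 2.58, 3.11, 3.34 and 11.7 CPM in KO day 0, where d0_KO_60 stood apart. Day 3 libraries had 1.28 to 7.27 CPM (median 2.72) in WT and 2.04 to 8.26 CPM (median 3.79) in KO. Day 7 libraries had 24.2 to 287 CPM (median 57.8) in WT and 41.8 to 192 CPM (median 126) in KO. All 14 day 7 libraries were above all libraries of days 0 and 3.

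The log2 fold change of Nos2 from day 3 to day 7 was 4.66 (SE 0.59, adjusted p 0.000115, edgeR), or 25.3-fold, in WT and 4.62 (SE 0.38, adjusted p 4.77e-06, edgeR), or 24.6-fold, in KO. It was 4.80 in KO without the library labelled d3_KO_345 and at its lowest 3.94 in WT, without d7_WT_356. Day 3 did not differ from day 0 by the test (log2 fold change 0.38 in WT and -0.09 in KO, adjusted p 0.554 and 0.881, edgeR). Within WT day 7 the level varied with a coefficient of variation of 108%, the highest of the members, and d7_WT_356 had 287 CPM against 92 CPM in the next library.

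Cyba, the membrane subunit shared by NOX1 and the phagocyte oxidase, rose from day 0 to day 3 in both genotypes, and from day 3 to day 7 in KO. It was measured at 30.7, 32.7, 33.4 and 38.8 CPM in WT day 0 and at 32.4, 35.4, 37.6, 39.9 and 43.4 CPM in KO day 0. Day 3 libraries had 50.8 to 119 CPM (median 61.8) in WT and 51.6 to 57.6 CPM (median 54.1) in KO, so that all 15 were above all 9 day 0 libraries. Day 7 libraries had 70.4 to 115 CPM (median 91.1) in WT and 76.1 to 108 CPM (median 84.6) in KO. In KO days 3 and 7 did not overlap, and in WT they overlapped only through d3_WT_381, at 119 CPM. Small intestine markers summed to 1500 CPM in that library and 305 to 709 CPM in the other WT day 3 libraries. Colon markers were also highest in it, at 11300 CPM against 5490 to 7930 CPM in the others. The part of these markers in its Cyba level was not tested.

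The log2 fold change of Cyba from day 0 to day 3 was 0.90 (SE 0.21, adjusted p 0.00367, edgeR) in WT and 0.41 (SE 0.07, adjusted p 0.00015, edgeR) in KO. From day 3 to day 7 it was 0.68 (SE 0.07, adjusted p 2.45e-05, edgeR) in KO, and 0.49 (SE 0.18, adjusted p 0.0735, edgeR) in WT, where it passed the test without d3_WT_381 (0.67, adjusted p 0.000926, edgeR) or without d7_WT_370 (0.55, adjusted p 0.0497, edgeR). The test of the difference between the genotypes in this change gave 0.21 (SE 0.20, adjusted p 1, edgeR). Without the library labelled d3_KO_345 the KO change was 0.41 from day 0 to day 3 and 0.67 from day 3 to day 7. Against day 0, Cyba was higher on day 7 by 1.39 (SE 0.15) in WT and 1.10 (SE 0.11) in KO on the log2 scale.

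Cybb, the catalytic subunit of the phagocyte oxidase, was near the detection limit before DSS. It was measured at 0.14, 0.421, 1.09 and 1.29 CPM in WT day 0 and at 0, 0.229, 0.366, 0.372 and 0.607 CPM in KO day 0, and it did not pass the filter on low counts in the comparison of genotypes on day 0. The count of 0 in d0_KO_32 allows up to 0.332 CPM (3 counts, on the same TMM scale), for counting error only. Day 3 libraries had 0.428 to 1.25 CPM (median 0.74) in WT and 0.811 to 4.46 CPM (median 1.23) in KO, with the library labelled d3_KO_345 the highest and the next at 2.22 CPM. Day 7 libraries had 2.31 to 18.9 CPM (median 4.99) in WT and 3.55 to 27.1 CPM (median 16.3) in KO. In WT days 3 and 7 did not overlap, and in KO they overlapped only through d3_KO_345.

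The log2 fold change of Cybb from day 3 to day 7 was 3.47 (SE 0.48, adjusted p 0.000174, edgeR) in WT and 3.25 (SE 0.45, adjusted p 0.000127, edgeR) in KO, and 3.66 in KO without the library labelled d3_KO_345. Between day 0 and day 3 it was 0.05 (SE 0.45, adjusted p 0.938, edgeR) in WT and 2.20 (SE 0.58, adjusted p 0.00632, edgeR) in KO, and 1.78 in KO without that library. The count of Cybb in KO day 0 libraries is small, so that the size of the KO change rests on few reads. In bulk libraries such as these, more cells of a type and more RNA per cell cannot be told apart.

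Markers of immune cells and of the small intestine moved with these results. A marker counts as detected here with over 3 counts in any library of a group. Macrophage and monocyte markers, of which 13 of 13 were detected on days 3 and 7, summed to 46.7 to 57.6 CPM in WT day 3 and 100 to 424 CPM in WT day 7. In KO they summed to 42.5 to 200 CPM on day 3, with 200 CPM in the library labelled d3_KO_345 and 63.9 CPM in the next, and to 111 to 645 CPM on day 7. Neutrophil markers, of which 6 to 8 of 10 were detected on days 3 and 7, summed to 8.05 to 45.3 CPM in WT day 3, 13.9 to 154 CPM in KO day 3, 150 to 1060 CPM in WT day 7 and 127 to 1740 CPM in KO day 7, and Elane was at 0 in every day 3 library, and Mpo and Elane in every KO day 0 library. On day 0 the macrophage and monocyte markers summed to 29.5 to 45.9 CPM with Cd163 at 0 in all 9 libraries, and the neutrophil markers to 1.88 to 34 CPM. Epithelial markers summed to 14700 to 25400 CPM on day 3 and 16300 to 23600 CPM on day 7. T cell markers had median sums of 20.7 CPM in WT day 3 and 38.8 CPM in WT day 7, and of 21.8 and 43.9 CPM in KO. B and plasma cell markers summed to 0.742 to 2.63 CPM in WT day 3 and 3.69 to 16.4 CPM in WT day 7, and to 0.873 to 5.14 and 3.01 to 14.1 CPM in KO. Median sums of fibroblast markers on days 3 and 7 were 22 and 53.4 CPM in WT, and 19.6 and 22.7 CPM in KO. The highest fibroblast sum was 206 CPM, in d7_KO_368. Those of endothelium markers had medians of 5.66 and 3.74 CPM in WT, and 6.07 and 3.88 CPM in KO, on the same days. Small intestine markers (Fabp6, Lct, Sis, Fabp2, Apoa4, Apoa1, Anpep and Reg3g, 8 of 8 detected) summed to 305 to 1500 CPM (median 618) in WT day 3. In WT day 7 they summed to 1230 to 8450 CPM (median 2160). In KO the sums were 252 to 1010 CPM (median 546) and 1390 to 3490 CPM (median 1930), and the days did not overlap. The list holds Reg3g, an antimicrobial lectin, and the sum was not split by gene. Colon markers had median sums of 6200 CPM in WT day 3 and 9870 CPM in WT day 7, and of 6710 and 8690 CPM in KO. The highest neutrophil sum, 1740 CPM, was in d7_KO_420, which also had the lowest Nox1 and the highest Duoxa2. The sum in d7_WT_356, the library with the most Duox2 and Nos2, was 1060 CPM. It was also 1060 CPM in d7_WT_419, where Duox2 was at 407, Duoxa2 at 64.4, Nos2 at 92 and Nox1 at 8.53 CPM. The part of these cells and of the small intestine and colon markers in the changes of Nos2, Cybb and the other members was not tested.

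**Figure D2:**
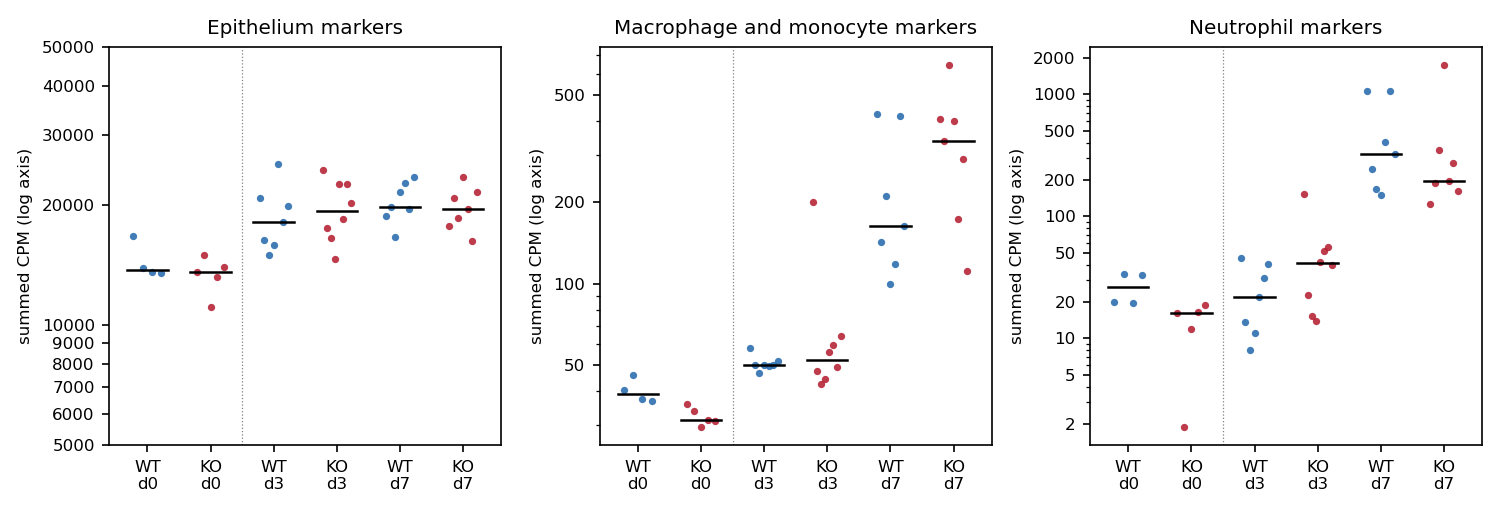
Summed level of marker genes in each library, in CPM on a log axis, for epithelium, macrophages and monocytes, and neutrophils, in WT (blue) and KO (red) on days 0, 3 and 7. Points are libraries and bars group medians. Epithelial sums of days 3 and 7 overlap, whereas neutrophil sums are 8.05 to 154 CPM on day 3 and 127 to 1740 CPM on day 7.

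The study set epithelial loss of Hk2 against floxed controls, and none of the members tested was called between KO and WT on any day. Of the 7 members tested on day 0, 0 were called by edgeR and 0 had an unadjusted p under 0.05. In that comparison 0.0335% of genes were called and 10.5% had an unadjusted p under 0.05. On day 3, 0 of 8 were called (0.00647% of genes) and 3 had an unadjusted p under 0.05 (7.88% of genes). These were Duox2 with a log2 fold change of 0.50 (SE 0.22), Cyba with -0.31 (SE 0.15) and Cybb with 1.04 (SE 0.37), each with an edgeR adjusted p of 0.623. Without the library labelled d3_KO_345 the 3 values were 0.37, -0.30 and 0.64 (adjusted p 0.77 for each, edgeR). On day 7, 0 of 8 were called (0.00642% of genes) and 1 had an unadjusted p under 0.05 (12.9% of genes), Noxa1 with -0.23 (SE 0.11, adjusted p 0.382, edgeR).

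The DESeq2 Wald test also called 0 members on each of the 3 days. Of all genes it called 175 of 14944 on day 0, 2 of 15461 on day 3 and 89 of 15584 on day 7. On day 7 the errors of the differences were wide for the members that vary most: Nos2 was at 0.41 (SE 0.50), Nox1 at 0.999-fold (SE 0.45 on the log2 scale) and Cybb at 0.85 (SE 0.50). Without d7_WT_356 the Nos2 difference was 1.13 (adjusted p 0.305, edgeR). A p above the threshold does not show that the genotypes were alike. In the test of whether the change from day 3 to day 7 differed between the genotypes, 0 of 8 members were called by edgeR and 0 by DESeq2, with log2 differences of -0.31 to 0.21. Of all 16371 genes 0% were called and 2.69% had an unadjusted p under 0.05, and 0 members did.

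**Figure D3:**
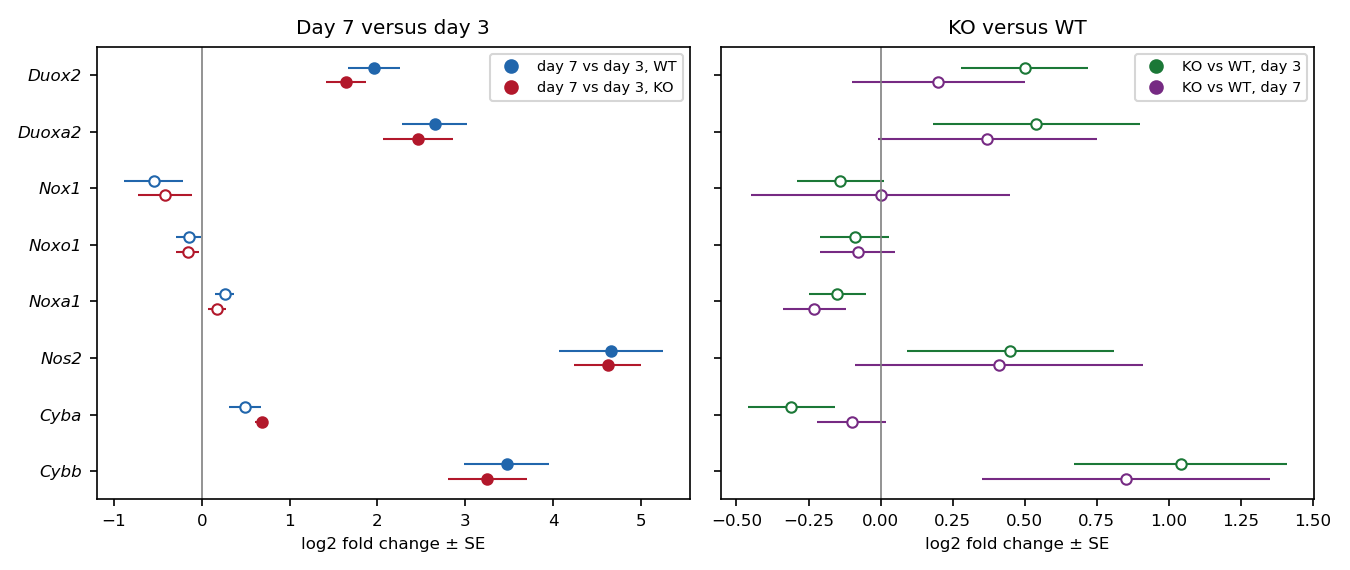
Log2 fold change of each member with its standard error (horizontal lines), from day 3 to day 7 in WT and KO (left) and between KO and WT on days 3 and 7 (right). Filled points have an edgeR adjusted p under 0.05. The largest changes with time are those of Nos2, 4.66 in WT and 4.62 in KO, and no point is filled in the genotype comparisons.

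Comparisons with day 0 carry the change of library series, and any difference in age, sex or depth. From day 0 to day 3, 2 of 8 members were called in WT (Duox2 lower, Cyba higher) where 46% of genes were called, 20.4% as higher and 25.6% as lower. In KO 4 of 8 were called (Duox2 and Noxa1 lower, Cyba and Cybb higher), where 46.3% of genes were called, 22.6% as higher and 23.7% as lower. The KO count was 2 with no filter on low counts, where 10557 of 29028 genes were called. It was also 2 without d3_KO_385, where 6783 of 15636 genes were called. From day 0 to day 7, 5 of 8 were called in WT and 5 of 8 in KO, all as higher, where 56.9% and 54.6% of genes were called, 27.8% and 27.3% as higher. In both genotypes these were Duoxa2, Nos2, Cyba and Cybb, with Noxa1 in WT and Duox2 in KO (1.00, SE 0.24, adjusted p 0.00327, edgeR). The days 3 and 7 comparisons share their day 0 libraries.

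Within day 7, where all 14 libraries belong to 1 series, some members varied together from animal to animal. Of 28 pairs of members, 3 passed a permutation test of Pearson's r of log2 CPM with a Benjamini-Hochberg adjusted p under 0.05. Duox2 and Duoxa2 had r = 0.86 (permutation p 7e-05, adjusted p 0.002) and Spearman's rho 0.89 (permutation p 8e-05, adjusted p 0.0022). Leaving out d7_KO_420 and d7_WT_356, the 2 libraries farthest from the median, r was 0.84, and it was 0.92 within WT and 0.89 within KO.

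Duox2 and Nos2 had r = 0.80 (permutation p 0.00061, adjusted p 0.0085) and rho 0.74 (permutation p 0.0038, adjusted p 0.036), with r = 0.68 without the same 2 libraries, 0.84 within WT and 0.65 within KO. Without d7_WT_356 alone r was 0.72 and the adjusted p 0.061. Nos2 and Cybb had r = 0.77 (permutation p 0.0017, adjusted p 0.016) and rho 0.83 (permutation p 0.00047, adjusted p 0.0066), with r = 0.74 without d7_WT_356 and d7_WT_386, 0.85 within WT and 0.55 within KO. The adjusted p of that pair was 0.051 without d7_WT_386 and 0.054 without d7_WT_393. Nox1 with Duoxa2 had r = -0.57 (permutation p 0.033, adjusted p 0.12), and 0.04 without d7_KO_420 and d7_WT_356, so that its value rests on those libraries. The immune marker sums given above also differ between these libraries, and their part in the correlations was not tested.

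**Figure D4:**
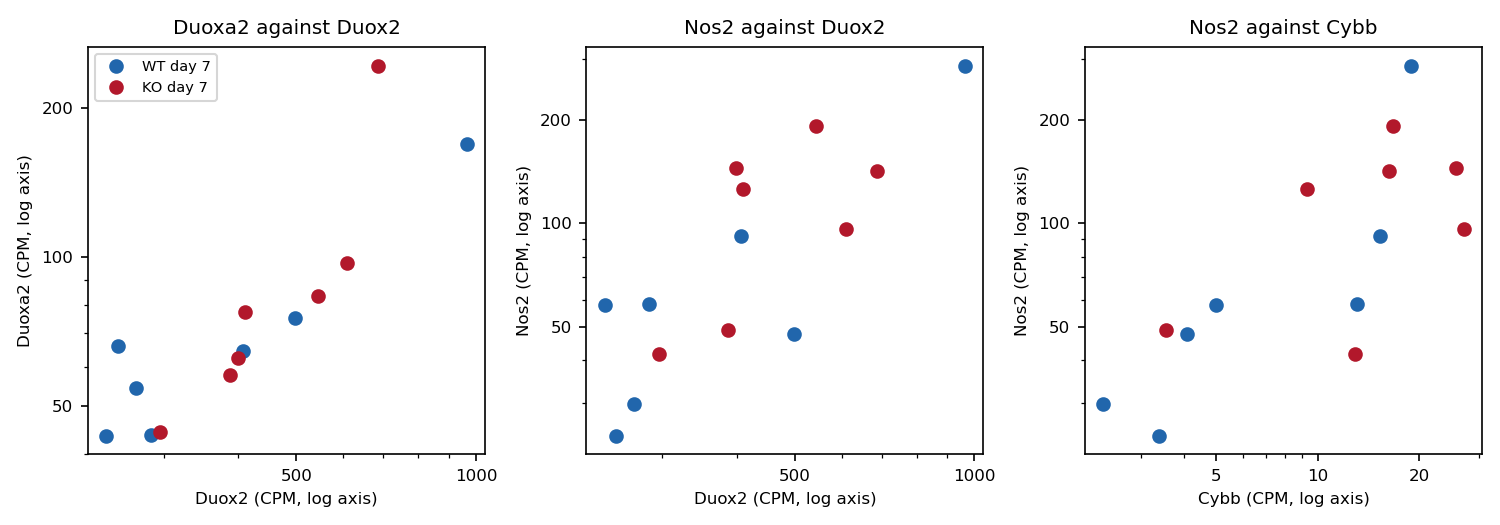
Levels of 3 pairs of members in the 14 day 7 libraries, in CPM on log axes, with WT in blue and KO in red. Duoxa2 rises with Duox2 (r = 0.86), and Nos2 with Duox2 (r = 0.80) and with Cybb (r = 0.77), with d7_WT_356 at the top of both Nos2 panels.

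The genes whose course over the 29 libraries of days 3 and 7 was most like that of a member were found by the root mean square difference of log2 CPM, each gene centred on its own mean, among 10570 genes. Nearest to Duox2 were Pde11a, Gcnt2 (0.34 each) and Trim40 (0.35), where the deviation of Duox2 about its own mean was 1.01, and its nearest fellow member was Duoxa2 (0.53). Trim40 went from 22.6 CPM in WT day 3 to 89.6 CPM in WT day 7. Nearest to Nox1 were Cnn3 (0.41), Smoc2 (0.42) and Tcaf1 (0.44), against a deviation of Nox1 of 0.77. No member was nearer to Nox1 than Noxo1, at 0.81.

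Nearest to Nos2 were Csf2rb (0.87), a subunit of receptors for myeloid cytokines, Il1b (0.99), the inflammatory cytokine interleukin-1β, and Tnfaip2 (1.01), against a deviation of Nos2 of 2.39. Nearest to Cybb were Mpeg1 (0.31), Csf1r (0.38) and Tyrobp (0.45), all known as genes of macrophages and other myeloid cells, against a deviation of Cybb of 1.82. Csf1r is also among the macrophage and monocyte markers above. These are descriptions over 29 libraries that share day, genotype and inflammation.

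Most other subunits of the oxidases rose. Of 10 listed genes 7 were tested, and 6 rose from day 3 to day 7 in WT and 6 in KO, with a median log2 fold change of 1.69 in WT and 1.39 in KO. Of all genes tested, 10.6% in WT and 10.5% in KO were called as higher. Ncf4 and Ncf1, cytosolic subunits of the phagocyte oxidase, changed by 3.25 (SE 0.43, adjusted p 0.000141, edgeR) and 2.39 (SE 0.45, adjusted p 0.00178, edgeR) in WT. Ncf1 went from 2.03 ± 0.849 to 10.5 ± 8.03 CPM (SD, n = 7 each). Rac2, the small GTPase of blood cells that activates that oxidase, changed by 1.69 (SE 0.38, adjusted p 0.00625, edgeR). Duoxa1, the maturation factor of DUOX1, went from 0.643 ± 0.25 to 2.47 ± 0.904 CPM (SD, n = 7 each), a log2 fold change of 1.95 (SE 0.28, adjusted p 0.000218, edgeR), with exon sequence shared with Duoxa2. These members of the list are known chiefly from leukocytes, apart from Duoxa1, and the marker sums above rose beside them.

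Of 15 listed genes of the substrate and cofactor of nitric oxide synthesis 13 were tested, and 4 rose in WT and 4 in KO (10.6% and 10.5% of all genes), with a median log2 fold change of 0.25 in WT and 0.13 in KO. In WT these were Arg1 (2.23, SE 0.53, adjusted p 0.00794, edgeR) and Arg2 (1.70, SE 0.25, adjusted p 0.000332, edgeR), the arginases, which use up arginine, Ddah1 (1.21, SE 0.16, adjusted p 0.000137, edgeR), which breaks down methylarginine inhibitors of nitric oxide synthases, and Gch1 (0.69, SE 0.18, adjusted p 0.0143, edgeR), the first enzyme of tetrahydrobiopterin synthesis. Ddah1 was at 59.2 ± 14.5 CPM on day 3 and 136 ± 28 CPM on day 7 (SD, n = 7 each).

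Among enzymes that remove hydrogen peroxide and superoxide, 3 of 17 tested rose in WT, and 2 rose and 1 fell in KO, with medians of 0.15 and 0.10. These shares are near those of all genes, of which 10.6% in WT and 10.5% in KO were called as higher and 8.83% in KO as lower. Gpx2, the epithelial glutathione peroxidase, changed by 0.67 in WT (SE 0.17, adjusted p 0.01, edgeR), to 559 ± 151 CPM on day 7 (SD, n = 7). Sod3, the secreted superoxide dismutase, changed by 1.03 (SE 0.34, adjusted p 0.0442, edgeR) and Txnrd1, thioredoxin reductase, by 0.37 (SE 0.10, adjusted p 0.0139, edgeR). The gene that fell in KO was Prdx6 (-0.54, SE 0.17, adjusted p 0.0382, edgeR), a peroxiredoxin, named after its values were seen. Of the 2 peroxidase genes tested of 5 listed, Lpo, which encodes lactoperoxidase, an enzyme that uses hydrogen peroxide, rose in WT from 33.1 ± 7.89 to 62.3 ± 18.1 CPM (SD, n = 7 each; log2 fold change 0.93, SE 0.18, adjusted p 0.00232, edgeR), and 0 were called in KO.

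Of 18 listed cytokines and signalling genes known to induce Duox2 or Nos2, 15 were tested in WT and 7 rose, and 16 were tested in KO and 8 rose (10.6% and 10.5% of all genes), with medians of 0.35 and 0.40. Il1b had the largest change, from 2.19 ± 1.0 to 121 ± 114 CPM (SD, n = 7 each) in WT, a log2 fold change of 5.76 (SE 0.64, adjusted p 6.1e-05, edgeR). Tnf, tumour necrosis factor, changed by 1.92 (SE 0.32, adjusted p 0.000725, edgeR) and Nfkbiz, an inducible NF-kB cofactor, by 0.73 (SE 0.14, adjusted p 0.00234, edgeR). Ifng, interferon-γ, named here after its values were seen, was at 0.0537 to 0.592 CPM in WT day 7 and 0.244 to 1.35 CPM in KO day 7, and that difference did not pass the test (log2 fold change 1.5, SE 0.56, adjusted p 0.325, edgeR). In all 5 lists, 0 genes were called between KO and WT on any day.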

How the data were processed

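RNA sequencing was done on 38 libraries of isolated intestinal epithelial cells, grouped by the genotype and day in the labels. The authors deposited whole-number counts per gene for each of 2 lanes, made with featureCounts 1.6.2 with strand ignored, per the file headers. The submitters' processing notes name featureCounts 1.5.2, STAR, Trim Galore and the GRCm38 build. The series text speaks of colon tissue, and the labels of isolated cells. The counts of both lanes were summed (lowest r of log2 counts 0.9887), and no libraries held identical counts.

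Comparisons used the edgeR 4.0.16 quasi-likelihood test in R 4.3.3, with TMM scaling, the edgeR filter on low counts and the compared groups alone. The SE given with a log2 fold change was derived from the test, as its absolute value over the square root of the F statistic. A gene was called where its p, adjusted by Benjamini and Hochberg over all genes tested, was under 0.05. CPM are TMM-scaled over all genes, and log2 CPM have a prior count of 2. This scaling of the CPM, which enters no fit, and the ratios of members were chosen after values had been seen. Correlations used 100000 permutations. The fits were tested on simulated counts.

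The members and the lists were chosen with earlier results of these data known. All 8 members and Hk2 were named, and of each list up to 4 called genes in each direction with the largest change from day 3 to day 7 in WT. For likeness the 3 nearest genes to Duox2, Nox1, Nos2 and Cybb with a mean log2 CPM of at least 2 were named. Other settings tried were the Wald test of DESeq2 1.42.0, its size factors with the edgeR fit, no filter, a mean CPM of at least 1, all 38 libraries in 1 fit, removal of mitochondrial-genome genes, lane 1 alone, and leaving out each library in turn. Labels give an animal number per library, and p-values measure the spread between these libraries. Promoter sequences were read from RefSeq tables.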

Additional observations from a re-analysis of the deposited data

Results flagged for a closer look

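In 4 of the 48 groups of libraries examined, 8 members in 6 groups, the highest or lowest library stood far from the others in log2 CPM by Dixon's test, and chance alone gives about 1 in 20. Duoxa2 was at 169 CPM in d7_WT_356, where the next WT day 7 library had 75.4 CPM. Nox1 was at 3.79 CPM in d7_KO_420, where the next KO day 7 library had 15.1 CPM. Nos2 was at 11.7 CPM in d0_KO_60, where the next KO day 0 library had 3.34 CPM. Small intestine markers summed to 811 CPM in d0_KO_60 against 461 to 550.0 CPM in the other KO day 0 libraries. Colon markers summed to 5900 CPM in it against 3780 to 5010 CPM in the others. Cyba was at 119 CPM in d3_WT_381, where the next WT day 3 library had 68.5 CPM.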

How the results depend on the processing

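No paired analysis was possible because the groups share no replicate numbers. The members called between days 3 and 7 in KO numbered 5 under each alternative, and 0 were called between genotypes or in the test of the difference in change. From day 0 to day 3 in KO the count was 4, and ranged from 2 to 4 when 1 library was left out. It was 2 with no filter on low counts, where 10557 of 29028 genes were called. The remaining changes of sign were in differences that were not called, and the cause was not tested. Between KO and WT, Nox1 was at 0.018 on day 0 with lane 1 alone and Noxo1 at 0.13, and on day 7 Nox1 was at 0.013 with no filter, 0.0059 with all 38 libraries and 0.031 with lane 1 alone. From day 0 to day 3 in WT, Noxo1 was at 0.014 with lane 1 alone, and Noxa1 at -0.0025 with DESeq2 size factors, -0.0028 by the DESeq2 Wald test and -0.054 with a mean CPM of at least 1. Nos2 in KO was at 0.08 with lane 1 alone. In the difference in change, Noxo1 was at -0.00021 with DESeq2 size factors, -0.001 without mitochondrial-genome genes and -0.13 with lane 1 alone. With each library left out in turn, the difference between genotypes ranged on day 0 from -0.18 to 0.28 in Duox2, -0.13 to 0.42 in Duoxa2 and -0.13 to 0.045 in Nox1, and on day 7 from -0.074 to 0.72 in Duoxa2 and -0.25 to 0.31 in Nox1. From day 0 to day 3 the ranges were -0.40 to 0.17 in Duoxa2, -0.011 to 0.066 in Noxa1 and -0.25 to 0.45 in Cybb in WT, and -0.27 to 0.62 in Nos2 in KO. In the difference in change they were -0.42 to 0.058 in Duox2, -0.61 to 0.19 in Duoxa2, -0.10 to 0.45 in Nox1, -0.055 to 0.056 in Noxo1, -0.34 to 0.71 in Nos2 and -0.38 to 0.20 in Cybb. All these are log2 values. Depth limits Cybb most, with at most 1.29 CPM in a day 0 library.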
